A study of Drosophila melanogaster with 70 samples.

Results

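Short domains are stretches of the fly genome of 20 kb or less that lie between neighbouring boundaries in the stage 5 control list of topologically associating domains (TADs). A domain was measured from the midpoint of 1 boundary to the midpoint of the next on the same chromosome arm. Of 2586 stage 5 control domains, 439 met this length rule. That is 17.0% of the domains (95% Wilson interval 15.6 to 18.5) and 5.6% of the spanned bases, or 7.318 Mb. The domains were chosen by the boundary positions of the control list, so their length is described here without a test.

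The lists come from Hi-C, which counts contacts between distant pieces of chromatin after cutting with DpnII and reading 75 bp from each end. Stage 5 control embryos came from mothers carrying the maternal driver mat-alpha-tub-Gal4 with a control RNAi construct (Bloomington stocks 7063 and 36304; 3 libraries). Stage 5 mof RNAi embryos came from the same driver with RNAi against mof (stocks 7063 and 58281; 2 libraries). The strain labels of these mof libraries still speak of control RNAi mothers, and the group used here follows the titles. Stage 15 embryos, 14 to 16 h old, came from driver stock 7062 with either RNAi stock, in 4 groups of 2 libraries, and were sorted into males and females by a Sxl-GFP reporter. Which of these 8 libraries made the stage 15 list is not stated in the sources used here. Each library pooled 50 to 100 hand-staged embryos, and the stage 5 embryos were not sexed. There is 1 boundary list per condition with no replicate columns and no read depth. No spread between replicates exists, no p-value was computed, and each interval below covers counting error only.

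TADs are stretches of chromatin whose parts touch each other more often than they touch the neighbouring stretches. In the fly embryo they become visible when the zygotic genome is switched on, around stage 5, and their boundaries are known to fall often at active promoters and at sites held by insulator proteins such as CP190. MOF is the acetyltransferase that places H4K16ac, the histone mark of dosage compensation on the male X, and it works in the MSL and NSL complexes. Maternal RNAi lowers what the mother puts into the egg.

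The shortest distances were rare and fell on the 2.5 kb grid of the list. There was 1 domain of 5 kb, 5 of 10 kb, 60 of 12.5 kb, 105 of 15 kb, 134 of 17.5 kb and 114 of exactly 20 kb, with a few lengths in between where bins had been left out. The median was 17.5 kb. Left-out bins or a wide boundary touched 31 of the 439 domains (7.06%) and 916 of 2147 longer domains (42.7%). Around the limit of the rule, the 114 domains of exactly 20 kb had a median mean end score of -0.385, and the 125 domains over 20 and up to 22.5 kb had -0.382. Both ends were called after mof RNAi in 67.5% of the former and 71.2% of the latter, and at stage 15 in 50.0% and 50.4%. Values just inside and just outside the limit were close.

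The domain of a well-known developmental gene serves as a first example, with fewer genes than most. eve, the pair-rule homeobox gene even skipped, is the 1 protein-coding gene with its midpoint in a 17.5 kb domain on 2R, between the bins 9971251 to 9973750 and 9988751 to 9991250 (dm6). The left boundary bin lies at the ends of CG12134 and eIF3j, and the right one at an end of TER94, which encodes an AAA ATPase. Protein-coding genes cover 14.9% of this domain, where the median over short domains is 93.6%. The authors' boundary scores were -0.538 at the left end and -0.617 at the right end. Both ends were called in the very same bins after mof RNAi and at stage 15. Ranked from the most negative score, they stood at the 24.9th and 17.3rd percentile of the control list, the 25.8th and 21.3rd of the mof RNAi list, and the 46.9th and 54.4th of the stage 15 list.

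The ends of short domains carried more negative scores than the remaining boundaries. The 439 domains have 803 distinct ends, because 75 boundaries lie between neighbouring short domains. Their median score was -0.367 (quartiles -0.553 and -0.156), against -0.27 for the other 1788 control boundaries. Scores ran from -0.922 to 0.531, and 692 of the 803 ends were negative (86.2%), against 72.8% of the other boundaries. These scores are the authors' own, their scale is not stated, and they come from the list that chose the domains, so they are described without a test.

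Left and right ends of a short domain also had similar scores. Both ends were negative in 359 domains (81.8%) and both positive in 41 (9.34%), while both were negative in 60.5% of longer domains. The median gap between left and right score was 0.111 in short and 0.276 in longer domains. Among domains without left-out bins, both ends were negative in 83.8% of short and 70.9% of longer ones, with median gaps of 0.112 and 0.258. Their median mean end scores were -0.394 and -0.349. Domains over 20 and up to 22.5 kb lay closer to the short ones, at 77.6% with both ends negative and a median gap of 0.178. Between 20 and 40 kb these values were 71.8% and 0.229. Spearman's correlation between left and right score was 0.712 over the 439 short domains and 0.202 over the 2147 longer ones. The ends of 1 short domain lie at most 20 kb apart on the same arm and neighbouring domains share an end, so these points are not independent. On 3L, 71.1% of short domains had both ends negative, and on the other arms the share ran from 79.8% on 2R to 87.5% on 2L.

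**Figure D1:**
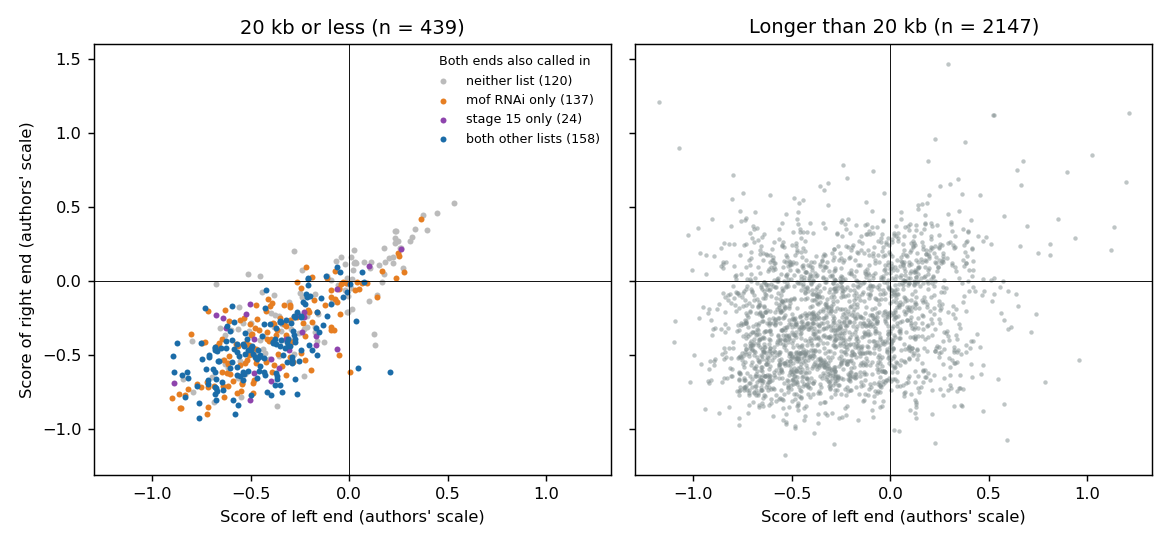
Score of the right end against score of the left end, on the authors' scale, for each short domain (left, coloured by the other lists that also call both ends) and each longer domain (right). Short domains lie along the diagonal (Spearman 0.712) and mostly in the lower left part, where both ends are negative, while longer domains scatter widely (0.202).

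The 5 domains with the most negative mean scores lay on 3R, 3L and 2L. A 12.5 kb domain on 3R (left bin 7073751 to 7076250) scored -0.859 and -0.856. It holds CG1943, the mRNA export factor gene Ref1, Dpck and the uridylyltransferase gene Tailor, and its right end lies beside alphaTub84B. A 17.5 kb domain on 3L (left bin 19908751 to 19911250) scored -0.852 and -0.86. It holds 6 genes, among them Su(z)12, a subunit of Polycomb repressive complex 2, the proteasome gene Rpn1, the splicing factor gene Prp3 and the exosome gene Mtr3. The other 3 are the Sry-alpha domain described below, a 12.5 kb domain on 3R with CG9837 and aqz, and a 20 kb domain on 2L whose 6 genes include chif, a regulator of DNA replication. All 5 had both ends called after mof RNAi. At stage 15 the aqz domain alone among them kept both ends.

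At the other extreme, the 5 domains with the most positive mean scores held between 0 and 4 gene midpoints, where the 5 most negative ones held between 2 and 11. The highest, at 0.531 and 0.526, lies on 2R (left bin 1096251 to 1099375) inside rl, the ERK MAP kinase gene, which spans the whole 17.2 kb domain. The next ones lie at CG2861 on X (0.445 and 0.458) and at CG6220 on 2R inside the much longer gene tei (0.376 and 0.446). None of these 3 kept both ends in either other list. A 12.5 kb domain on 3L with the growth regulator gig and 3 more genes (0.362 and 0.418) kept both ends after mof RNAi and its left end at stage 15. A 12.5 kb domain on 3R beside the homeobox gene lbe, with no gene midpoint inside (0.394 and 0.346), kept its left end in both other lists.

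Short domains were dense in genes. Of 13842 protein-coding genes, 1392 had their midpoint in a short domain, which is 10.1% of the genes in 5.6% of the spanned bases. This is 19.0 genes per 100 kb, against 10.1 in longer domains. Among domains without left-out bins the density was 19.6 in short and 14.0 in longer ones. The density fell with length, from 15.0 between 20 and 40 kb to 10.0 between 40 and 100 kb and 6.16 in domains of 100 kb or more. Within the short class it hardly moved, with 19.3 up to 15 kb and 18.9 between 15 and 20 kb. A short domain held a median of 3 gene midpoints (quartiles 1 and 5, highest 11) and a median of 2 whole genes. Genes covered a median of 93.6% of its bases, against 85.2% in longer domains, and 93.3% against 88.2% without left-out bins. The genes were not smaller: their median length was 2.41 kb in short and 2.13 kb in longer domains.

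Gene ends lay at both ends of most short domains. A protein-coding gene end lay within 2.5 kb of each end in 320 of 439 short domains (72.9%, 68.5 to 76.8), against 61.5% of all control domains, 59.2% of longer ones and 44.8% of those of 100 kb or more. Domains just above the limit were like the short ones, with 72.8% (64.4 to 79.8) between 20 and 22.5 kb and 67.0% between 20 and 40 kb. Among domains without left-out bins the shares were 75.2% (70.8 to 79.2) for short and 70.5% (67.9 to 73.0) for longer ones. The gene table carries no strand, so a gene end can be its start or its stop. Gene density also differs between these classes, as given above, and its part in these shares was not tested. Where both ends had a gene end, 87.5% of the short domains had negative scores at both ends. Where neither had one, 12 of 27 domains did (44.4%). Some gene crossed at least 1 end in 394 domains (89.7%), against 86.5% of all control domains.

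**Figure D2:**
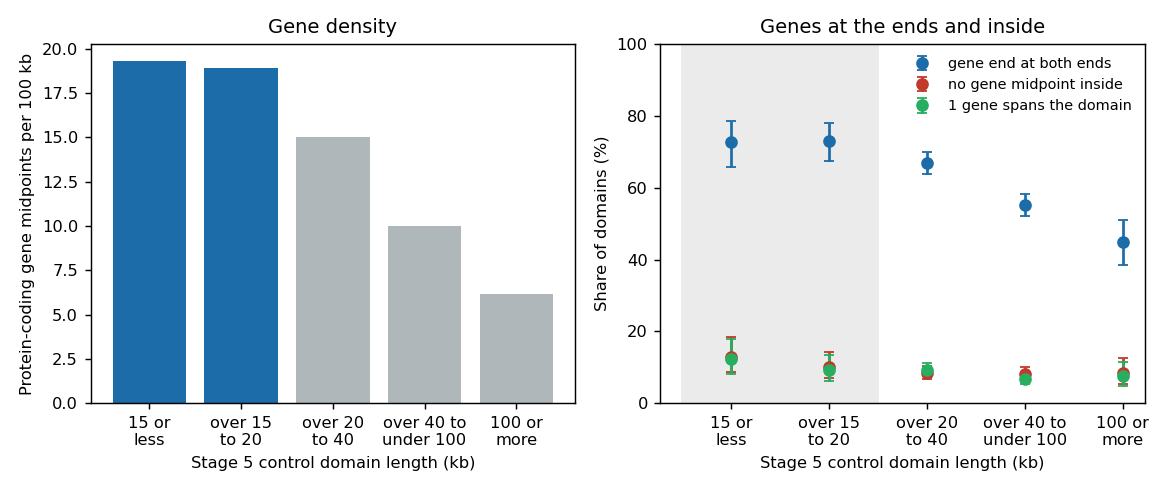
Protein-coding gene midpoints per 100 kb (left) and shares of domains in percent with 95% Wilson intervals (right), by domain length in kb, with the short classes in blue or on grey. Density falls from 19.3 per 100 kb in the shortest class to 6.16 at 100 kb or more, and the share with a gene end at both ends falls to 44.8%.

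The gene-richest short domains hold 10 or 11 genes. The Sry-alpha domain, 17.5 kb on 3R (left bin 30038751 to 30041250, right bin 30056251 to 30058750), holds 11. Among them are Sry-alpha, which acts in cellularization of the blastoderm, the zinc finger genes Sry-beta and Sry-delta, and the ribosomal protein gene RpL32. Its ends scored -0.898 and -0.792. After mof RNAi the partners lay 2.5 kb and 0 kb away. At stage 15 the right end was called in the same bin. The nearest call to the left end lay 17.5 kb away, the distance to that right end. The left end is shared with another short domain of 17.5 kb, which holds the Wnt pathway gene Axn, the insulator protein gene ZIPIC and the testis genes ocn, janA and janB. In the stage 15 list the boundary between these domains had no partner, and the outer ends of the pair were both called.

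Another 11 genes fill a 17.5 kb domain on 2L (left bin 8383751 to 8386250), with the peritrophin genes Peritrophin-15a and Peritrophin-15b, the seminal fluid gene Acp29AB and the planar polarity gene fy. Its left neighbour, a 20 kb domain, holds 10 genes such as the COP9 signalosome gene CSN8, the phosphatase subunit gene Pp2A-29B and the tRNA ligase gene AlaRS. Both had both ends called in the very same bins in all 3 lists. The remaining domains with 10 genes lie on X, with the claudin gene pck and Rab27, and on 2R, with the mitochondrial ribosomal protein gene mRpL52. Both also had both ends in all 3 lists. The X domain scored -0.352 and -0.702, and the 2R domain -0.013 and -0.0772.

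A domain can also match a single gene. In 45 short domains (10.3%, 7.75 to 13.4) the same protein-coding gene had its opposite ends within 2.5 kb of the opposite domain ends, against 46 of 2147 longer domains (2.14%, 1.61 to 2.85) and 3.52% of all control domains. Genes long enough to frame a longer domain were fewer, with 2617 protein-coding genes of over 5 to 25 kb and 800 over 25 kb, and the part of gene length in this difference was not tested. Both ends were called after mof RNAi in 37 of the 45, and at stage 15 in 27. All short domains came to 67.2% and 41.5%, and those with a gene end at both ends to 72.2% and 50.6%. Examples of the 45, chosen after their values were seen, are wts and hid. wts, the Warts kinase gene of the Hippo pathway, runs for 17.0 kb inside a 17.5 kb domain on 3R with scores -0.398 and -0.768, called in all 3 lists. hid, which promotes cell death, runs for 17.9 kb in a 17.5 kb domain on 3L with scores -0.351 and -0.249 that kept both ends after mof RNAi and not at stage 15. Mad, the SMAD of BMP signalling, Socs36E, an inhibitor of JAK/STAT signalling, and the homeobox gene otp also fill a short domain each, with both ends in all 3 lists.

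In 46 short domains (10.5%, against 8.31% of all control domains), some of them among those just described, a gene spanned the whole domain from end to end. These domains lie in 44 genes with a median length of 80.2 kb. Both ends were called after mof RNAi in 23 of the 46 (50.0%) and at stage 15 in 9 (19.6%), beside 67.2% and 41.5% of all short domains. pros, the homeobox gene prospero of neural differentiation, contains 3 consecutive short domains of 20, 20 and 15 kb within its 79.1 kb. The outer left end scored -0.675, the inner boundaries -0.0216 and -0.062, and the outer right end -0.457. After mof RNAi the outer ends were called in the same bins, and neither inner boundary had a partner within 2.5 kb. CadN, a neuronal cadherin gene, holds 2 short domains. The Hox genes Antp, Ubx and Abd-B, the growth factor receptor gene Egfr and the ecdysone receptor gene EcR contain 1 each. pros, CadN, Antp, Ubx and EcR were named after their values were seen.

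In 49 short domains (11.2%, against 8.82% of all control domains) no protein-coding gene had its midpoint. Of these, 9 were 12.5 kb or less, and 2 of the 9 kept both ends after mof RNAi and 1 at stage 15. The 5 named here are the 1 shorter than 12.5 kb and the 4 with the most negative mean scores among those tied at that length. The Egfr domain is 12.5 kb on 2R (left bin 21521251 to 21523750). It scored -0.691 and -0.593 and both ends were called in the same bins in all 3 lists. The Abd-B domain, 12.5 kb on 3R (left bin 16956251 to 16958750), scored -0.382 and -0.566, kept both ends after mof RNAi, and had no call within 2.5 kb of its left end at stage 15. The other 3 named, beside the GATA factor gene grn on 3R, within CG9932 on 2L, and between klu and Fad2 on 3L, each had the left end in the same bin after mof RNAi and lacked the right one.

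Of 22 segmentation genes, eve, run and tll had their midpoint in a short domain (3 genes, 13.6%), beside 10.1% of all protein-coding genes. run, a pair-rule gene of the Runt family, has its midpoint in a 15 kb domain on X with scores 0.18 and 0.129. The right boundary bin of this domain lies within run. After mof RNAi the nearest call to the left end lay 15 kb away, the distance to the called right end. At stage 15 both ends had their nearest call 50 kb or more away. tll, a terminal gap gene, shares a 20 kb domain on 3R with the cuticle gene Cpr100A, and both ends were called after mof RNAi. Of 19 early zygotic genes, 4 lay in short domains: run, tll, Sry-alpha and slam, which acts in cellularization. None of 11 Hox genes, 17 dorsoventral genes, 11 genes of the Enhancer of split list, 19 heat shock genes, 16 cell cycle genes, 8 muscle genes or 114 histone genes had its midpoint in a short domain. Genes of 1 cluster can share a domain, so these are counts of annotated genes and not of separate places. Of the neuron and glia list, repo, the glial homeobox gene, was the 1 of 8 in a short domain.

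Genes for chromatin proteins lay in short domains in small numbers. Of 21 insulator and architectural genes, 5 lay in short domains (23.8%, 10.6 to 45.1), beside 10.1% of all protein-coding genes. Cp190, which encodes a cofactor of insulator proteins, lies in a 10 kb domain on 3R with ATPsynO, a subunit gene of ATP synthase, the zinc transporter gene Zip88E and CG14864. Its ends scored -0.664 and -0.541, and both were called in all 3 lists, with a shift of 2.5 kb at the right end at stage 15. The other 4 were Nup98-96, ZIPIC, Clamp and su(Hw), and none of these had both ends at stage 15. In the su(Hw) domain, 20 kb on 3R, the left end was called in the same bin in each list. The nearest call to the right end lay 20 kb away in both other lists, the distance to that left end.

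The MSL and NSL complexes are those in which MOF works. Of 9 MSL complex and roX genes, mle, msl-2 and Clamp lay in short domains (33.3%, 12.1 to 64.6, beside 10.1% of all protein-coding genes). msl-2, the male-limited subunit gene, lies in a 17.5 kb domain on 2L with scores -0.613 and -0.708, and both ends were called after mof RNAi. mle, an RNA helicase gene, lies with the spindle checkpoint gene BubR1 in a 12.5 kb domain on 2R whose right end was called in each list. Its left end had its nearest call 12.5 kb away in both others, the distance to that right end. nsl1, the scaffold gene of the NSL complex, lies in a 12.5 kb domain on 3R that kept both ends after mof RNAi and its left end at stage 15. Of 20 Polycomb and Trithorax genes, 5 were in short domains (25.0%, 11.2 to 46.9, beside the same 10.1%): ash1, phol, esc, Su(z)12 and Snr1. The phol and Snr1 domains had both ends in all 3 lists, esc and Su(z)12 lost an end at stage 15, and ash1 lacked an end in each other list.

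For 5 further gene families the interval of the share in short domains held the 10.1% of all protein-coding genes. Cytoplasmic ribosomal protein genes had 6 of 89 members in short domains (6.74%, 3.13 to 13.9), mitochondrial ribosomal protein genes 10 of 73 (13.7%, 7.61 to 23.4) and proteasome subunit genes 7 of 48 (14.6%, 7.25 to 27.2). The domains of the mitochondrial list were called after mof RNAi in 9 of 10 cases and at stage 15 in 7, and those of the proteasome list in 5 and 4 of 7, where all short domains came to 67.2% and 41.5%. RpL18 and mRpL50 share the shortest domain of both ribosomal lists, 12.5 kb on 3L, which had 1 end called in each other list. RpLP2, which encodes a ribosomal stalk protein, lies with the cell cycle kinase gene Cdk4 in a 15 kb domain on 2R called in the same bins in all 3 lists. Of 119 odorant and gustatory receptor genes, 10 lay in short domains (8.4%, 4.63 to 14.8). The sugar receptor genes Gr64a to Gr64f share 1 of these, 17.5 kb on 3L, with scores -0.21 and 0.0122 and both ends in the same bins in all 3 lists. Of 70 cuticle genes of the Cpr family, 6 (8.57%, 3.99 to 17.5) were in 4 short domains, 3 of which kept both ends after mof RNAi and none at stage 15.

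After mof RNAi, both ends of 295 of 439 short domains had a boundary within 2.5 kb (67.2%, 62.7 to 71.4), beside 63.7% of all control domains. Longer domains came to 63.0% (61.0 to 65.0), and the intervals of short and longer domains overlap. Domains over 20 and up to 40 kb came to 67.0% (63.9 to 70.0). In 240 short domains (54.7%) both partners lay in exactly the same bins, beside 49.8% of longer domains. A further 124 domains had 1 end called (28.2%) and 20 had neither (4.56%), beside 30.5% and 6.52% of longer domains. Taken 1 at a time, 657 of the 803 ends were called (81.8%, 79.0 to 84.3), against 77.3% (75.3 to 79.2) of the other control boundaries. Of the 295 domains, 285 were again 20 kb or less.

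At stage 15, both ends were called in 182 short domains (41.5%, 36.9 to 46.1), beside 41% of all control domains and 40.8% of longer ones. The share of short domains was thus near that of all control domains. Domains over 20 and up to 40 kb came to 46.5% (43.4 to 49.7), and domains of 15 kb or less to 38.5% (31.7 to 45.8). Exactly the same bins were called in 118 short domains (26.9%), beside 26.4% of longer domains. In 201 domains 1 end was called (45.8%) and in 56 neither (12.8%), beside 40.8% and 18.4% of longer domains. Single ends were called in 63.8% (60.4 to 67.0), against 60.7% (58.5 to 63.0) of the other boundaries. Stage, the RNAi groups and sexes behind the stage 15 list, and the depth of each list cannot be told apart in this comparison.

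Both ends were present in all 3 lists in 158 short domains (36.0%, 31.6 to 40.6), beside 32.6% of all control domains and 31.9% of longer ones. Domains over 20 and up to 40 kb came to 36.4% (33.4 to 39.5). Another 137 short domains were called after mof RNAi and not at stage 15, 24 at stage 15 and not after mof RNAi, and 120 in neither. Both comparisons share the control list, so these counts are given side by side and not as a test.

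No further boundary lay between the partners of any short domain, where there is little room for 1: spacings under 10 kb occurred 1 time in the control list, 0 times after mof RNAi and 3 times at stage 15. Of domains of 100 kb or more, 56.5% kept both ends after mof RNAi, and 29.7% did so with no boundary between. At stage 15 the corresponding shares were 35.1% and 7.53%.

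**Figure D3:**
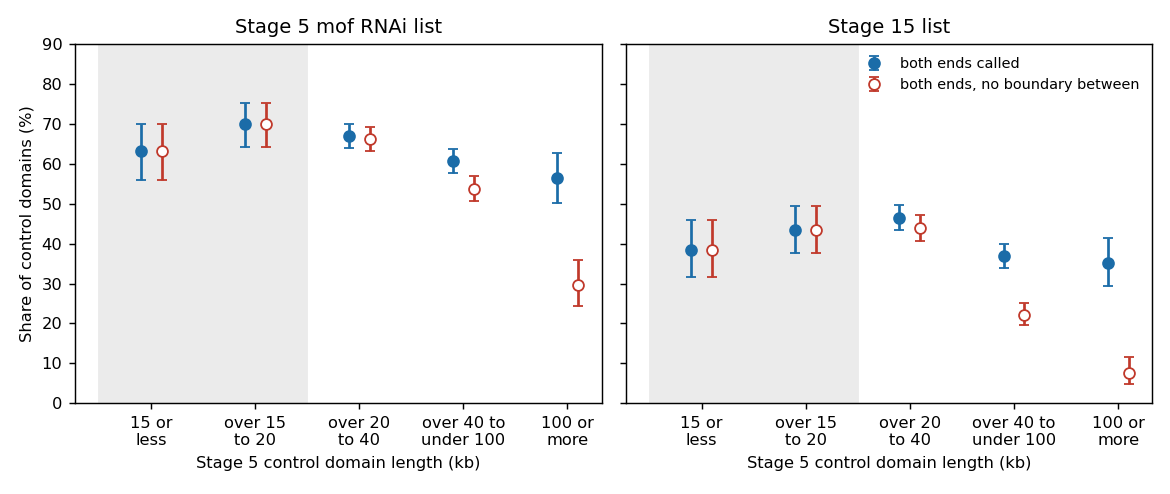
Share of stage 5 control domains, in percent with 95% Wilson intervals, whose ends were both called after mof RNAi (left) and at stage 15 (right), by domain length in kb, with short domains on grey. Filled and open points coincide for short domains (67.2% and 41.5% over both short classes) and part with length, down to 29.7% and 7.53% at 100 kb or more.

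The score of the ends went with the calls in short and longer domains alike. Control domains were split into 5 equal groups by the mean score of both ends. After mof RNAi, both ends were called in 85.4% of the short domains in the most negative group (n = 123) and in 31.9% of those in the least negative group (n = 69). Longer domains in the same groups came to 85.1% and 37.7%. At stage 15 they were 55.3% (46.5 to 63.8) and 11.6% (5.99 to 21.2) for short domains, and 63.8% (58.9 to 68.4) and 12.7% for longer ones. In each of the 5 groups the intervals of short and longer domains overlapped in both lists.

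Left-out bins and gene ends also differ between short and longer domains. Among domains without left-out bins, 69.4% of short and 69.7% of longer domains kept both ends after mof RNAi, and 43.9% and 47.7% at stage 15. Among domains with a gene end at both ends, the shares were 72.2% and 72.8% after mof RNAi, and 50.6% and 55.4% at stage 15. Short domains with a gene end at 1 end or none came to 53.8% and, at stage 15, to 16.8% (11.2 to 24.5). The parts of score, left-out bins and gene content in these shares were not tested against each other.

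**Figure D4:**
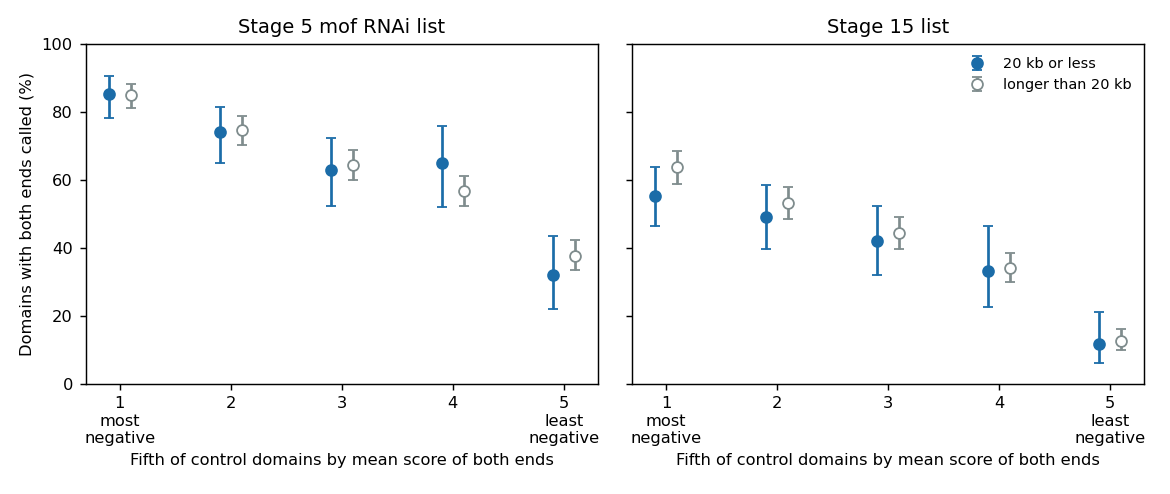
Share of domains, in percent with 95% Wilson intervals, whose ends were both called after mof RNAi (left) and at stage 15 (right), in 5 equal groups by mean end score, for short (filled) and longer (open) domains. Both classes fall from left to right, short domains from 85.4% to 31.9% after mof RNAi and from 55.3% to 11.6% at stage 15.

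The number of genes inside went with the calls as well. Of the 49 short domains with no gene midpoint, 40.8% (28.2 to 54.8) kept both ends after mof RNAi and 12.2% (5.73 to 24.2) at stage 15. With 1 gene the shares were 65.4% and 26.9%. With 2 to 4 genes they were 72.0% and 48.1%, and with 5 or more 71.5% (63.0 to 78.8) and 52.0% (43.3 to 60.7). Longer domains showed the same order at the extremes, with 39.1% and 10.1% for no gene midpoint and 69.4% and 48.7% for 5 or more. On the X chromosome 65.4% (54.3 to 75.0) of its 78 short domains kept both ends after mof RNAi, against 67.6% (62.6 to 72.2) of the 361 on autosomes. At stage 15 these were 32 of 78 and 150 of 361 domains.

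Where 1 end of a short domain went uncalled after mof RNAi, it was mostly the one with the less negative score. This was so in 94 of 124 domains (75.8%, 67.6 to 82.5) and in 72.0% (68.5 to 75.3) of longer domains with 1 end called. The uncalled ends had a median control score of -0.216 and the called ends -0.347, and 105 of the uncalled ends had no boundary within 10 kb. At stage 15 the less negative end was the uncalled one in 117 of 201 short domains (58.2%, 51.3 to 64.8), against 70.5% (67.4 to 73.5) of longer domains with 1 end called. The median scores were -0.315 for uncalled and -0.402 for called ends of short domains, and -0.0939 and -0.399 for those of longer domains. Left and right scores differ less in short domains, as given above. When a short domain was not kept, its middle lay in a domain with a median length of 53.8 kb after mof RNAi (n = 144) and 50.0 kb at stage 15 (n = 257).

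Some uncalled ends nevertheless had strongly negative scores. After mof RNAi, neighbouring short domains on 2L lost the boundary they share, in the bin from 2873751 to 2876250, which scored -0.686 in the control list and lies at the ends of CG8814, Ifrd1 and Prx6a. The outer ends of this pair, at -0.89 and -0.818, were both called in the same bins. The shared boundary was called in the same bin at stage 15, at the 4.67th percentile of that list. milt, which encodes an adaptor for mitochondrial transport, lies in a 15 kb domain on 2L with scores -0.793 and -0.749. Its right end, beside Mnn1, had its nearest mof RNAi call 15 kb away, the distance to its called left end. On X, a 15 kb domain between Sxl, the sex determination switch gene, and the end of the Wnt receptor gene fz4 kept its Sxl end (-0.845) in both other lists. There the nearest call to its fz4 end (-0.663) lay 15 kb away, the distance to that Sxl end. Another such domain holds the condensin gene Cap-D3 and the RNA helicase gene Hel25E on 2L. Its left end (-0.549) had its nearest call 17.5 kb away after mof RNAi, the distance to its called right end, and 5 kb away at stage 15.

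At stage 15 the same kind of loss touched the most negative domains of the list. The Ref1, Su(z)12, Sry-alpha and Axn domains each had 1 end with no partner within 10 kb. So did a 17.5 kb domain on 3R with rin, the fly G3BP, Rbp4 and Hrb87F, whose right end beside the splicing factor gene B52 scored -0.77. The nearest stage 15 call to this right end lay 17.5 kb away, the distance to the called left end. The right end was called 2.5 kb away after mof RNAi, at the 2.36th percentile of the mof RNAi list. In each of these 5 domains both ends were called after mof RNAi. Over all short domains, 125 (28.5%) had at least 1 end with no partner within 10 kb after mof RNAi and 187 (42.6%) at stage 15. The share for longer domains is not given here.

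Of the 6 domains of 10 kb or less, 3 kept both ends after mof RNAi and 2 at stage 15. The domain of 5 kb lies at the mucin gene Muc68D on 3L, with scores 0.109 and 0.127, and its left end was called in the same bin in both other lists while its right end was not called within 2.5 kb. Of the 5 domains of 10 kb, the Cp190 domain and that of Su(var)3-7, a heterochromatin protein gene on 3R, were called in all 3 lists. The 10 kb domain of san, an acetyltransferase gene of sister chromatid cohesion, and the taste receptor gene Gr47b on 2R kept both ends after mof RNAi and its right end at stage 15. The domain of PolE1, the catalytic subunit gene of DNA polymerase epsilon, with Sec13 and ATPsynCF6 on 3R (-0.697 and -0.646), kept its left end after mof RNAi and its right end at stage 15. The domain of the olfactory co-receptor gene Ir8a and the histone locus body gene mxc on X kept its right end after mof RNAi and its left end at stage 15.

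Short domains were not gathered into long runs. The next domain along the arm was short for 75 of 439 short domains (17.1%, 13.9 to 20.9), beside 17% of all control domains, and for 364 of 2142 longer ones (17.0%, 15.5 to 18.6). A short neighbour on either side was found for 32.6% of short and 30.9% of longer domains. Of the runs, 296 were single domains, 61 were pairs and 7 were triples, and none was longer. By arm, short domains made up 14.1% (11.2 to 17.6) of the domains on 2L, 16.9% on X, 17.3% on 3L, 17.4% on 3R and 18.8% (15.6 to 22.5) on 2R.

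On a larger scale they were uneven. In 128 windows of 1 Mb the median was 3 short domains, and the highest number was 10, in a window of 3L from 21052501 to 22052500 and one of X from 10142501 to 11142500. The 8 windows with 7 or more short domains had a median of 133.5 protein-coding genes, and the 11 windows with none had a median of 6. These windows also differed in their number of domains of any length, with medians of 26 and 10. Long stretches without a short domain lay at 1518906 to 4625000 on 2R (3.11 Mb) and 22277500 to 25422031 on 3L (3.14 Mb), which are the arm ends next to the centromeres. Another lay at 20687500 to 22816250 on X (2.13 Mb), also toward an arm end. The one at 3461250 to 5533750 on 2L (2.07 Mb) includes a window with 125 protein-coding genes and no short domain. These stretches were measured between short domains only. Ahead of the first short domain of 3R, the windows from 607501 to 3607500 held none, and at most 3 protein-coding genes each. Within windows of 4 to 6 short domains they were 22.3% of the domains, and within windows of 7 or more 32.2%, where the number of short domains itself chose the windows.

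**Figure D5:**
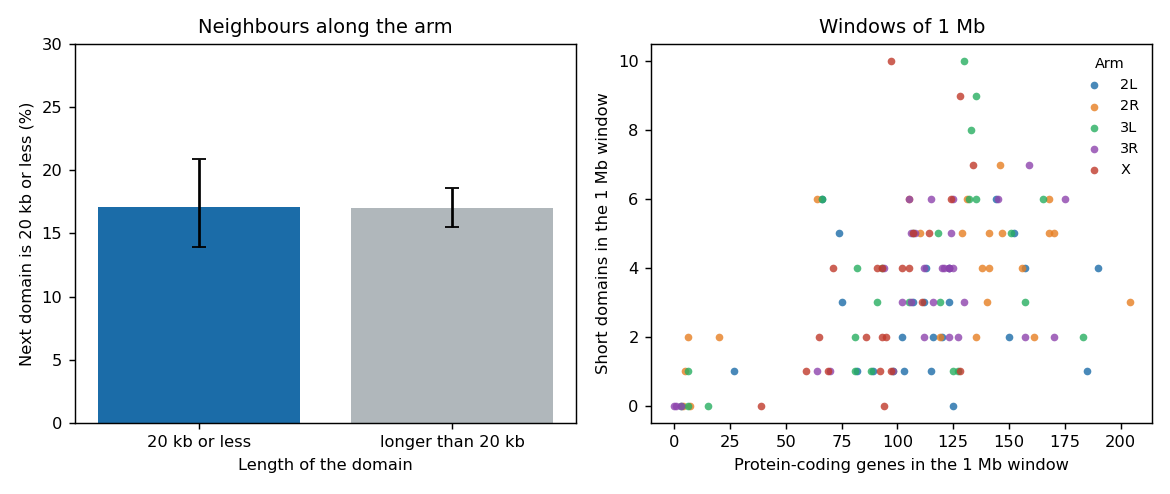
Left, percent of short and longer domains whose next domain on the arm is short, with 95% Wilson intervals, and right, short domains per 1 Mb window against protein-coding genes in the window, coloured by arm. The bars stand at 17.1% and 17.0%, and windows without a short domain mostly lie at few genes (median 6).

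The 3 leading triples, the longest runs with the smallest mean length, behaved differently. On 3L from 21910001 to 21958750, domains of 17.5, 15 and 16.25 kb, with SLC22A, the translesion polymerase gene PolH, CG14562 and CG7458, had positive scores between 0.164 and 0.259, and none kept both ends in either other list. On 2L from 6325001 to 6375000, the triple holds PDZ-GEF and Pez in its first domain, the P450 reductase gene Cpr and the channel genes ppk7 and ppk14 in its second, and slam in its last. On 2L from 8365001 to 8415000, the triple holds 24 genes from CSN8 to Naglu, with the nuclear export receptor gene emb at its right. In both 2L triples all 3 domains kept both ends after mof RNAi and 2 did so at stage 15.

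Short domains were also found in the other lists. The mof RNAi list has 399 among 2494 domains (16.0%, 14.6 to 17.5) and the stage 15 list 584 among 2780 (21.0%, 19.5 to 22.6), where the control list has 17.0%. Of the 399, both ends were in the control list in 291 (72.9%, 68.4 to 77.1), and 285 were short there too. Over all mof RNAi domains the share with both ends there was 68.4%. Of the 584 at stage 15, both ends were in the control list in 182 (31.2%, 27.5 to 35.0), 1 end in 280 and neither in 122. Over all stage 15 domains the share with both ends there was 35.1%. The stage 15 list thus has more short domains. Most of these had at least 1 end that the control list does not call, as did most stage 15 domains of any length.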

How the data were processed

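Domain boundaries were deposited by the authors as 1 list per condition in 2.5 kb bins, each boundary with a score whose scale the authors do not state; a list deposited for stage 5 is identical to the control list. The build is dm6, per the submitters' processing notes; no aligner or boundary caller is named in the labels. Of 70 samples, 13 are Hi-C libraries of the conditions these lists are named for and 57 were not analysed here. Depth is unknown.

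Distances between neighbouring boundary midpoints were computed with Python 3.11.15, pandas 2.3.3 and numpy 2.4.6. A boundary was called in another list when a midpoint lay within 2.5 kb. Shares have 95% Wilson intervals (scipy 1.17.1) that cover counting error only; domains share boundaries and are not independent. Gene positions came from the RefSeq gene table of the same release 6 assembly, and a gene belonged to the domain that holds its midpoint. A gene named in a domain can thus extend past the domain end, as run, slam, Clamp and su(Hw) do. Matching was tested on simulated lists.

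Named domains follow a rule: listed genes (up to 4 per list, shortest domain first), the shortest, the most negative and most positive mean scores, leading runs, the most negative mean scores among domains with an end lacking a partner within 10 kb, and most or no genes; ties went to the more negative mean score. Other genes were named after their values were seen, among them those that complete a list's count. Members, gene lists and tests were chosen with earlier results of these data known. The splits by score group, left-out bins, gene ends and gene number, and the genes matching or spanning a domain, were added after seeing the data. A planned look at promoter sequence was not run, since no sequence table was used here. Alternatives changed the length limit, the matching distance, the boundaries used and the gene window.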

Additional observations from a re-analysis of the deposited data

How the results depend on the processing

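Of 50 alternatives, 20 moved a value by more than the spread allowed for it (1.5 times for a count, its interval for a share) and 30 did not. Measuring length between the facing edges of the boundaries gave 567 short domains in place of 439. With a limit of 15 kb there were 179 short domains and with 25 kb 699, and the share with a short neighbour became 10.1% and 50.1%. Such a share depends on how many domains count as short. The shares for the remaining domains under these limits are not given here. Both ends in exactly the same bins were called in 54.7% after mof RNAi, 26.9% at stage 15 and 20.7% in all 3 lists. Longer domains came to 49.8%, 26.4% and 18.4%. For short domains the mof RNAi and stage 15 shares were the same with no boundary between. Within 5 kb the shares were 49.2% at stage 15, also with no boundary between, and 41.7% in all 3 lists. Longer domains came to 47.7% and 38.6% for both ends. Within 10 kb they were 54.9% and 45.1%, beside 55.8% and 45.3% for longer domains. With the most negative 50% of each other list they fell to 38.7% after mof RNAi, 18.7% at stage 15 and 13.9% in all 3, beside 21.1%, 16.6% and 8.2% for longer domains. Counting every biotype gave 22.4 genes per 100 kb. A gene end at both ends was found in 53.5% with a window narrower by 50% and 79.0% with 5 kb. No paired analysis was possible because there is 1 list per condition and its columns carry no replicate. The depth of each list, which limits the calls, is unknown.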

Other observations

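Genes of other kinds also lay in short domains, where 10.1% of protein-coding genes had their midpoint. Of 1945 lncRNA genes, 111 did (5.71%, 4.76 to 6.83), and of 268 snoRNA genes 16 (5.97%, 3.71 to 9.48). The shares were 18 of 258 for miRNA genes (6.98%, 4.46 to 10.8), 19 of 290 for tRNA genes (6.55%, 4.23 to 10.0) and 61 of 493 for antisense RNA genes (12.4%, 9.75 to 15.6). These are counts of annotated genes, and members of 1 cluster share a domain. No rRNA gene of 98 lay in a short domain.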
